A study of Homo sapiens and Mus musculus with 66 samples.

Results

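The long arms of the human acrocentric chromosomes 13, 14, 15, 21 and 22 were examined for chromatin at or near the nuclear lamina, as called by lamin-B1 cTSA-seq. The arms were taken as the 100 kb windows of hg19 from 20 Mb to the end of chromosomes 13, 14 and 15, from 14 Mb on chromosome 21 and from 17 Mb on chromosome 22. This gave 3338 windows of the 30970 on chromosomes 1 to 22, X and Y, with 952, 874, 826, 342 and 344 windows for chromosomes 13, 14, 15, 21 and 22 in that order. The windows are defined by position alone, although the arms were picked with earlier results of these data known. The assembly gap that spans short arm and centromere ends at 19020000, 19000000, 20000000, 14338129 and 16050000 on chromosomes 13, 14, 15, 21 and 22, and distances from the centromere were counted from there.

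An acrocentric chromosome has its centromere close to 1 end. Its short arm carries arrays of ribosomal RNA genes, which build the nucleolus, and nearly all of its protein-coding genes lie on the long arm. The nuclear lamina is the meshwork of lamins under the inner nuclear membrane, and the chromatin that lies against it in interphase is typically poor in genes and rich in A and T. In mitosis the lamina comes apart, and chromatin and lamina meet anew as the nuclei of the daughter cells form.

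In cTSA-seq a peroxidase bound to lamin-B1 by antibodies deposits biotin-tyramide around the lamina, and labelled chromatin is then pulled down with streptavidin (StrePD) and sequenced beside its input. HCT116, a human colorectal cancer cell line, was measured at 5 stages. The 90m G1 and 180m G1 cells were G1 cells sorted by DNA content 90 and 180 min after release from nocodazole, a blocker of spindle microtubules that holds cells in mitosis, whereas the G1, S and G2 cells were sorted from asynchronous cultures without the drug. Unsorted HCT116 cells were measured in bulk and from 50000, 200000 and 1000000 cells (50k, 200k and 1e6), and unsorted K562 cells, a human leukemia line, in bulk. Each of these 10 conditions has 1 deposited list of regions, in which the replicates are already merged: 2 StrePD libraries stand behind 9 of the lists and 1 behind the 1e6 list. The 90m G1 and 180m G1 lists are not labelled as consensus lists, whereas the others are. Whether their replicates were merged in the same way is therefore not known. A region holds no signal and no read count, so that depth is unknown, no replicate error can be given and no test between conditions was made. The ranges below run over the 5 chromosomes or over lists, and such a range is no replicate error. A window is said to be called when more than 50% of it lies in a region. The G2 cells may include mitotic cells, which have the same DNA content, and the 90m G1 and 180m G1 cells differ from the others in the drug and the release as well as in the time since mitosis.

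The windows called in 90m G1 alone of the 5 stages and those called at the later stages differ in their sequence. Examples are shown here because the comparisons below return to them. For chromosomes 13, 14 and 15 the longest protein-coding gene lying wholly in windows called in 90m G1 but in none of 180m G1, G1, S and G2 was COL4A2, EML1 and IGF1R. COL4A2 makes a collagen of basement membranes, EML1 a microtubule-binding protein and IGF1R the receptor of insulin-like growth factor 1. The 200 bases before the annotated start of each gene are given 5′ to 3′ on the strand of the gene, in hg19, with CG dinucleotides, the sites of DNA methylation, in capitals. They lie at chr13:110957959-110958158 (plus strand, within COL4A1 but over none of its exons), chr14:100203830-100204029 (plus strand, in no other gene) and chr15:99191568-99191767 (plus strand, in no other gene).
COL4A2: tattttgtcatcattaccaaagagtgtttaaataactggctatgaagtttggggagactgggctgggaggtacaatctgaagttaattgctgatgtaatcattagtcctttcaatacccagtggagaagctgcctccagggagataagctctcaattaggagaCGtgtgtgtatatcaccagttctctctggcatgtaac
EML1: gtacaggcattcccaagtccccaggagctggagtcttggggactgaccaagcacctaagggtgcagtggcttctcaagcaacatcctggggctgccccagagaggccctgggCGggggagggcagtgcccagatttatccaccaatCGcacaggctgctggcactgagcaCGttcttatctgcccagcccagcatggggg
IGF1R: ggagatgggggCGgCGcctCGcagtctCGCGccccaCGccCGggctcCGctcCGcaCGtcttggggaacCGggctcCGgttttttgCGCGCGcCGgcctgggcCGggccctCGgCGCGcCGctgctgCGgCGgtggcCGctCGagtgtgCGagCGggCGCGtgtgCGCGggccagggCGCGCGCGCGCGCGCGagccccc

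Among windows called in 180m G1, G1, S and G2 but not in 90m G1, the corresponding genes were NALF1 on chromosome 13, which makes a partner of the sodium leak channel, and FLRT2 on chromosome 14, which makes an adhesion protein of neurons and other cells. No protein-coding gene lay wholly in such windows on chromosome 15. The stretches lie at chr13:108519845-108520044 (minus strand, in no other gene) and chr14:85996288-85996487 (plus strand, over an exon of the antisense RNA FLRT2-AS1).
NALF1: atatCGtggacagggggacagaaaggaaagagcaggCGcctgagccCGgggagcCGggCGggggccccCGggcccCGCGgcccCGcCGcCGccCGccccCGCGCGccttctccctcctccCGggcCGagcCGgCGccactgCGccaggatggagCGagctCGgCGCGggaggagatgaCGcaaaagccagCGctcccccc
FLRT2: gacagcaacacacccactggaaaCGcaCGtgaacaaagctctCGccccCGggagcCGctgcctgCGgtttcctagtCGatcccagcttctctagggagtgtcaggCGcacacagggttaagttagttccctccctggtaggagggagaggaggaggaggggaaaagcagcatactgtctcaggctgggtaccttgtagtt

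CG counts ran from 1 before COL4A2 and 3 before EML1 to 39 before IGF1R, with 26 before NALF1 and 8 before FLRT2. Over all 20163 protein-coding genes the median was 12 in the same 200 bases, and 94.9% of the genes had at least 1. Both sets of examples thus have members above and below this median. Over the 148 genes lying 80% or more in windows called in 90m G1 alone of the 5 stages the median was 15.5 (quartiles 4 and 26). Over the 19 such genes of the later windows it was 12 (quartiles 7.5 and 13).

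Across the 5 arms the called share was lowest in 90m G1, rose through 180m G1 and was about level in the asynchronous HCT116 lists. In 90m G1 312 of the 3338 windows (9.35%) were called, against a background of 17% over the 30970 windows genome-wide. The 180m G1 list called 412 windows (12.3%, background 20.5%). The G1 list called 733 (21.96%, background 20.2%), the S list 748 (22.4%, background 22.4%) and the G2 list 684 (20.5%, background 20%). In the 3 asynchronous stages the arms were thus close to the background, and in both lists after release they were below it.

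Unsorted HCT116 cells gave 814 windows (24.4%, background 26.9%) in bulk, 779 (23.3%, background 22.8%) from 50k, 760 (22.8%, background 21.9%) from 200k and 779 (23.3%, background 21.2%) from 1e6 cells. These 4 lists spanned 22.8 to 24.4%, while 90m G1 and 180m G1 lay outside that span and below it. In K562 1226 windows (36.7%, background 39.6%) were called. On the other 17 autosomes, taken whole, the shares were 18.4% in 90m G1, 21.05% in 180m G1, 19.7% in G1 and 41.4% in K562.

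The 5 chromosomes did not follow the pooled share. Chromosome 21, whose proximal long arm is one of the most gene-poor stretches of the genome, was called in 0 of 342 windows in 90m G1, in 35 (10.2%) in 180m G1, in 158 (46.2%) each in G1 and S, and in 143 (41.8%) in G2. Its share in the 4 unsorted lists was 40.6% in bulk, 47.7% from 50k, 48.5% from 200k and 48.8% from 1e6 cells. Of the 22 autosomal long arms that of chromosome 21 ranked 1 by share called in G1, S, G2, 50k, 200k and 1e6, ranked 5 in bulk, and was at 0 in 90m G1, as was chromosome 19. In K562 136 of its windows (39.8%) were called and it ranked 12.

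Chromosome 22, the most gene-rich of the 5 arms with 13.1 protein-coding genes per Mb against 3.36 on chromosome 13, was the least called in nearly all lists. Its share was 2.62% in 90m G1 and 0% in 180m G1, and the G1, S and G2 lists gave 7.56, 4.07 and 4.65%. The unsorted lists gave 0% in bulk, 5.23% from 50k, 3.78% from 200k and 6.69% from 1e6 cells, and K562 gave 0%. Among the 22 long arms it ranked last in every list but 90m G1, where it ranked 20, and in 180m G1 it shared the value of 0 with chromosome 19.

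Chromosomes 13, 14 and 15 lay between these. Chromosome 13 went from 5.78% in 90m G1 to 17.02% in 180m G1, and the G1, S and G2 lists gave 19.5, 24.1 and 18.6%. Chromosome 14 started at 16.5% in 90m G1, stood at 16.7% in 180m G1 and reached 22.2 to 22.3% in the G1, S and G2 lists. Chromosome 15 had 12.6% in 90m G1, 8.35% in 180m G1, 20.3% in G1 and 18.5% in both S and G2, and was the only one of the 5 besides chromosome 22 with a lower share in 180m G1 than in 90m G1. The 4 unsorted lists spanned 21.6 to 29.8%, 21.9 to 24.4% and 19.4 to 24.2% for chromosomes 13, 14 and 15. On each of these arms the span over G1, S and G2 was no wider than that over the unsorted lists. In K562 chromosome 13 was called most of the 5, with 57.0%, followed by chromosomes 21 (39.8%), 14 (36.2%) and 15 (28.0%).

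**Figure D1:**
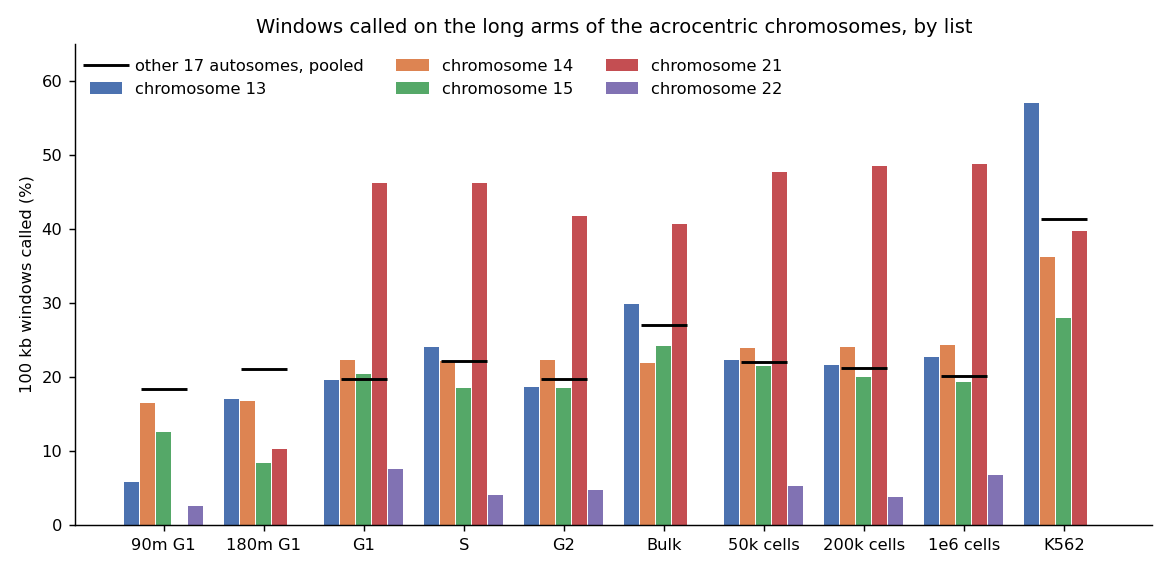
Share of 100 kb windows called (%, vertical axis) in each of the 10 lists (horizontal axis). Bars are the 5 long arms and the black line is the pooled share of the other 17 autosomes, with 1 list per condition and no error bars. Chromosome 21 goes from 0% in 90m G1 to 46.2% in G1, and chromosome 22 stays at or below 7.56% in every list.

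Regions on the arms were fewest in 90m G1 of the 10 lists. The 90m G1 list held 14 regions on the 5 arms with a median size of 1.77 Mb and a largest of 7.9 Mb. In 180m G1 there were 28 (median 1.2 Mb), in G1 48 (median 1.1 Mb), in S 45 (median 1.4 Mb) and in G2 43 (median 1.1 Mb). K562 had 67 with a median of 1.3 Mb and a largest of 11.5 Mb. Over the whole list the medians were 1.2 Mb in 90m G1, 1 Mb in G1 and 1.3 Mb in K562.

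By distance from the centromere, the 90m G1 calls were confined to the outer 2 of 5 segments of the arms. Each arm was divided into 5 segments of equal window number. In 90m G1 the 3 segments next to the centromere held 0 of 670, 0 of 669 and 0 of 667 called windows, the next held 35 of 667 (5.25%) and the distal segment 277 of 665 (41.7%). The distal share was 68.4% for chromosome 14 and 61.8% for chromosome 15, against 24.7% for chromosome 13, 13.2% for chromosome 22 and 0% for chromosome 21. On the long arms of the other 17 autosomes the distal segment had a median of 74.8% (0 to 100%), with calls on 16 of the 17, and the 3 inner segments each had a median of 0% with calls on 5, 6 and 8 of the 17. The 5 acrocentric arms thus lay below that median in the distal segment, within the range of the other arms. A high distal share was not limited to 90m G1. In unsorted bulk cells, which had calls in every pooled segment, the distal segment held 252 of 665 windows (37.9%). On chromosome 15 that share was 70.3%. In 50k, 200k and 1e6 the pooled distal segment held 22.9, 19.2 and 16.5%.

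The first 90m G1 call began 75.4, 59.3, 62.8 and 32.35 Mb from the centromere gap of chromosomes 13, 14, 15 and 22. Counted from the other end, 127 of 254 windows (50%) within 5 Mb of the chromosome end were called, 72 of 250 (28.8%) from 5 to 10 Mb, 63 of 250 (25.2%) from 10 to 15 Mb, and 27 of 250 (10.8%) from 15 to 20 Mb. On chromosome 13 94% of the last 5 Mb was called but none of the windows from 5 to 20 Mb. Chromosome 14 had 54.9% in the last 5 Mb and 96% from 5 to 10 Mb, and chromosome 15 had 84.3% and 48%. Calls reached the end of the chromosome on chromosome 15, came within 49.5 kb of it on chromosome 14, and stopped 270 kb before it on chromosome 13. The last 10, 60 and 60 kb of chromosomes 15, 14 and 13 are assembly gap. On chromosome 14 the calls thus covered the sequence up to its last base, as on chromosome 15.

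At 180m G1 the pooled calls lay further in, though not on every arm. The 5 segments held 4.93%, 9.42%, 6.30%, 22.8% and 18.3% from centromere to end. On the long arms of the other autosomes, pooled, they held 18.9%, 15.7%, 15.7%, 22.4% and 26.2%. Within 5 Mb of the end of the 5 acrocentric arms 20 of 254 windows (7.87%) were called. On chromosome 13 nothing was called in the last 6370 kb, where 90m G1 had its longest region. The median position of a called window was 91.2% of the way along the arm in 90m G1, 74.3% in 180m G1, 42.8, 47.7 and 44.7% in the G1, S and G2 lists and 44.9% in K562. By chromosome the median went from 96.8% in 90m G1 to 61.7% in 180m G1 for chromosome 13 and from 88.9 to 73.1% for chromosome 14, while chromosome 15 stood at 89.6 and 88.6%. Chromosome 21 had calls only in the later and chromosome 22 only in the earlier of these lists.

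In G1 cells the pooled arms had calls in every segment, although single arms did not: chromosome 14 had none in segment 2, chromosome 15 none in segment 4 and chromosome 22 none in segments 1, 2 and 4. The 5 pooled segments held 27.5%, 20.5%, 17.1%, 21.1% and 23.6% from centromere to end, and the other autosomal long arms, pooled in the same way, held 22.9%, 15.8%, 10.7%, 16.1% and 24.3%. Within 10 Mb of the centromere gap 171 of 473 windows (36.2%) were called in G1, 35 (7.40%) in 180m G1 and 0 in 90m G1. This inner part was called in G1 on chromosome 14 (48.9%), chromosome 15 (54%) and chromosome 21 (70.9%), and not on chromosomes 13 and 22 (0% on both). In 180m G1 chromosomes 14, 15 and 21 had 23.3%, 0% and 13.6% there, so the inner 10 Mb of chromosome 15 was called in G1 but neither 90 nor 180 min after release.

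**Figure D2:**
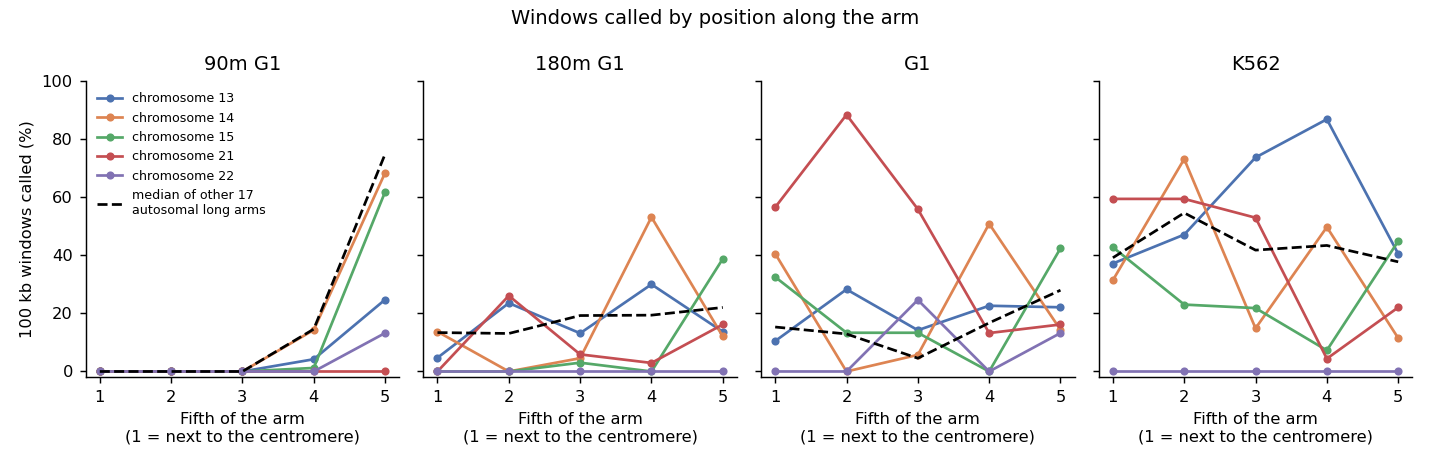
Share of 100 kb windows called (%, vertical axis) in 5 equal segments of each arm (horizontal axis, 1 next to the centromere) for 90m G1, 180m G1, G1 and K562. Colored lines are the 5 arms and the dashed line is the median of the other 17 autosomal long arms. In 90m G1 all 5 arms are at 0% in the 3 inner segments, and only chromosomes 14 and 15 exceed 60% in the distal one.

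**Figure D3:**
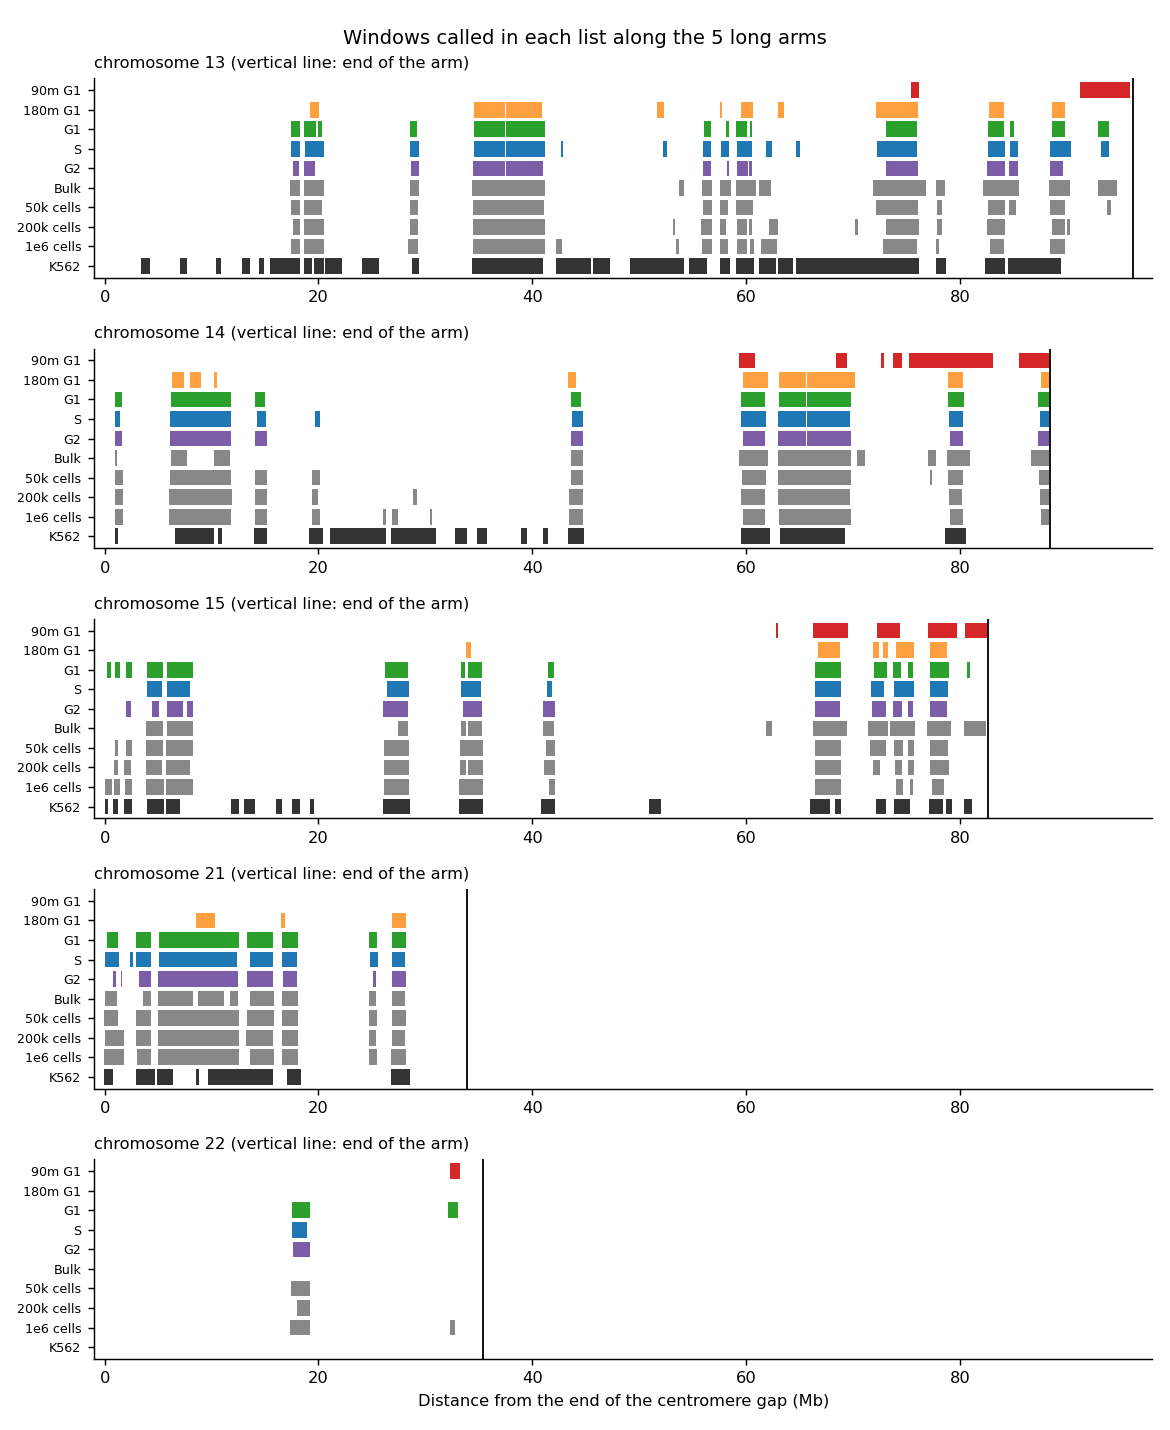
Called windows (colored blocks) along each of the 5 arms in the 10 lists (rows), against distance from the end of the centromere gap in Mb. The top row of each panel is 90m G1, with calls near the ends of chromosomes 13, 14, 15 and 22 and none on chromosome 21, and the bottom row is K562, with none on chromosome 22.

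Of the 312 windows called in 90m G1 136 (43.6%) were called in at least 1 later stage, against 48.6% over all chromosomes. Of the same 312 windows 97 (31.1%) were called in 180m G1 and 134 (42.9%) in G1, which made up 23.5% of the 180m G1 windows and 18.3% of the G1 windows. Over all chromosomes 39.4% of the 90m G1 windows were called in 180m G1 and 38.7% in G1. Between 180m G1 and G1 the overlap was higher on the arms, with 361 windows called in both, 87.6% of the 180m G1 windows but 49.2% of the G1 windows. Over all chromosomes these shares were 77.9% and 79.1%, so that about as many windows were called in 180m G1 as in G1 genome-wide (6344 and 6250), against 412 and 733 on the arms. Of the 372 arm windows called in G1 and not in 180m G1, chromosomes 21, 15 and 14 gave the most, 54, 58, 110, 124 and 26 windows coming from chromosomes 13, 14, 15, 21 and 22.

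Among the asynchronous stages the lists overlapped more. G1 and S shared 669 windows, 91.3% of G1 and 89.4% of S, and S and G2 shared 638, 85.3% of S and 93.3% of G2. For comparison, 2 lists of unsorted cells, 50k and 1e6, shared 712 windows, 91.4% of each, while bulk and 1e6 shared 608, 74.7% of the bulk windows and 78.0% of the 1e6 windows.

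The stages divided the 3338 windows into classes with different GC content and gene density. In 176 windows (5.27%, background 8.76%) 90m G1 alone of the 5 stages made the call, and 2312 (69.3%, background 64.5%) were called in none. The unsorted lists had no part in this rule, and bulk called some of these windows. On chromosome 15 the bulk region from 100400001 to 102400000 overlapped the run from 100900001 to 102531392 called in 90m G1 alone of the stages. There were 2316 arm windows called in none of the 7 HCT116 lists of asynchronous cells, sorted and unsorted. Of these 5.01% were called in 90m G1. Of the 168 windows called in 1 of the 7 lists 35.7% were. The class is therefore not one of windows called only after release. The 90m G1 windows without later calls made up 56.4% of the 90m G1 windows, a share of 67.3% for chromosome 13, 66.7% for chromosome 14, 39.4% for chromosome 15 and 22.2% for the 9 windows of chromosome 22. Their median GC content was 47.0% (quartiles 44.2 and 50.4%) and they held 8.67 starts of protein-coding genes per Mb, against 40.4% and 6.65 for all arm windows. A further 90 windows (2.70%, against 5.19% over all chromosomes) were called in 90m G1 and in all of 180m G1, G1, S and G2, with a median GC content of 39.7% and 0.222 gene starts per Mb. The 259 windows (7.76%, against 9.94%) called in those 4 stages but not in 90m G1 had the lowest median, 36.2% (quartiles 35.2 and 37.7%), and 0.927 gene starts per Mb. Windows called in no stage stood at 41.2% and 8.26 gene starts per Mb. GC content moved with the class, and its part in the calls was not tested.

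**Figure D4:**
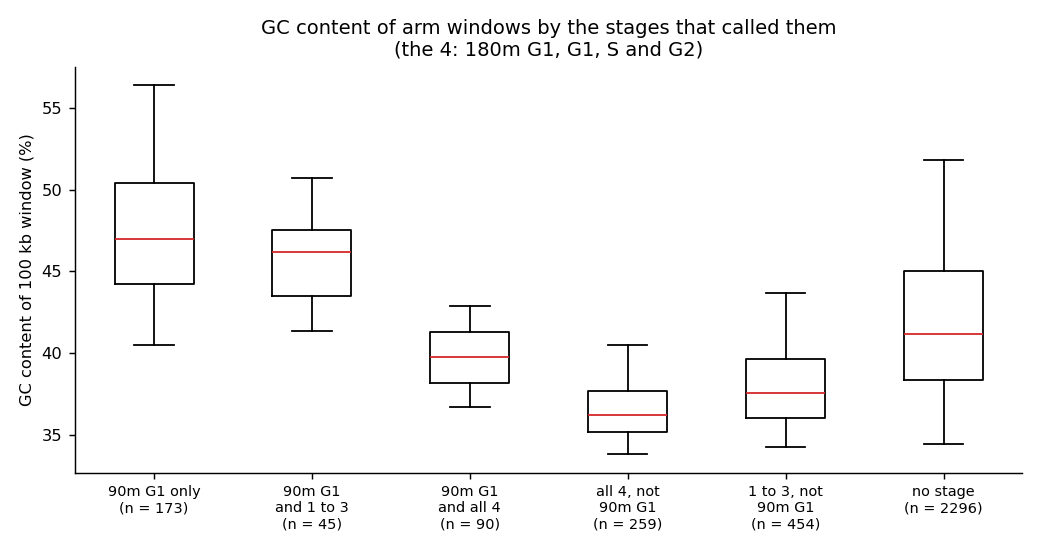
GC content of 100 kb windows (%, vertical axis) in 6 classes of arm windows defined by the stages that called them, with windows that are mostly assembly gap left out. Boxes span the quartiles, red lines are medians and whiskers run from the 5th to the 95th percentile. The median falls from 47.0% where 90m G1 alone of the 5 stages made the call to 36.2% where all 4 other stages but not 90m G1 did.

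Protein-coding genes followed these classes. A gene was counted as inside when at least 80% of its length lay in regions. The 90m G1 list held 160 of the 2216 genes of the arms (7.22%, background 17.2%), or 5.14 per called Mb. The 180m G1 list held 39 (1.76%, background 5.3%) or 0.947 per called Mb, the G1 list 128 (5.78%, background 4.81%), the S list 120 (5.42%, background 5.38%) and the G2 list 116 (5.23%, background 4.55%), all 3 between 1.604 and 1.75 per called Mb. The bulk list held 189 (8.53%, background 11.1%) and K562 200 (9.03%, background 11%). In 50k, 200k and 1e6 the shares of all arm genes were 6.63, 6.32 and 6.45%. Counts of the gene groups below are given beside these shares of all arm genes. The groups were chosen with earlier results of these data known. Those of 1 locus hold neighboring genes that share the same calls, so their shares describe a place and are no test of enrichment. Of the 160 genes in 90m G1 regions 4 (2.5%) were also inside in 180m G1 and 7 (4.38%) in G1, where over all 3462 genes in 90m G1 regions these shares were 12.0% and 10.4%. This difference was not tested. Chromosome 14 gave 90 of the 160, chromosome 15 37, chromosome 13 32 and chromosome 22 1, while in G1 chromosome 21 gave 49 of the 128. Without chromosome 14 the 90m G1 count was 70, and without chromosome 21 the G1 count was 79.

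On chromosome 13 the longest 90m G1 region ran from 110200001 to 114900000 (4.7 Mb) and held 31 protein-coding genes. A group of 24 neighboring genes of 13q34 describes it, and 90m G1 regions held 21 of these (87.5%, against 7.22% of all arm genes). These genes share 1 region, so the count is not one of separate calls. The 180m G1 regions held 0, the G1 and S regions 1 each (4.17%, against 5.78 and 5.42%) and the G2 regions 0. COL4A1 and COL4A2, the collagen IV chains that are transcribed away from each other, the coagulation factors F7 and F10, the vitamin K-dependent PROZ and GAS6, the lysosomal LAMP1 and the ubiquitin ligase scaffold CUL4A were inside in 90m G1 and in no other list. SOX1, a transcription factor of neural progenitors, was the member called in G1 and S, and it was inside in 90m G1 and bulk too. CDC16, UPF3A and CHAMP1, which lie beyond the region in the last 270 kb, were outside in all 10 lists. The longest G1 region of chromosome 13 was another stretch, from 56600001 to 60200000 (3.6 Mb), with 6 genes among which PCDH17, a protocadherin of neuronal contacts, was the longest.

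Chromosome 14 had the longest 90m G1 region of the 5 arms, from 94200001 to 102100000 (7.9 Mb), with 55 protein-coding genes, the longest of them EML1, EVL and VRK1. Inside lay all 10 genes of the serpin cluster, which make inhibitors of proteases such as SERPINA1 (alpha-1 antitrypsin), SERPINA3 and SERPINA5 and the hormone carrier SERPINA6. All 7 genes of the imprinted domain, including DLK1, RTL1 and DIO3, expressed from the paternal copy, and the long non-coding RNA MEG3, expressed from the maternal copy, lay inside too. None of these 17 genes was inside in 180m G1, G1, S, G2, any unsorted list or K562. In the K562 consensus list of regions depleted by both TSA-seq and cTSA-seq, 5 of the 7 imprinted genes and 0 of the 10 serpins were inside. The longest G1 region ran from 25200001 to 30800000 (5.6 Mb) with PRKD1, STXBP6 and NOVA1 among its genes.

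On chromosome 15 the longest 90m G1 region ran from 86300001 to 89500000 (3.2 Mb) with 12 genes, led by AGBL1 and NTRK3, the receptor of neurotrophin-3. Of 25 genes listed for their place in distal 15q26, 90m G1 regions held 19 (76%, against 7.22% of all arm genes). The 180m G1 and S regions held 3 each (12%, against 1.76 and 5.42%) and the G1 and G2 regions 2 each (8%, against 5.78 and 5.23%). IGF1R, PGPEP1L and SYNM were inside in 90m G1 and in no other list, and LRRK1, CHSY1, which builds chondroitin chains, PCSK6, a proprotein convertase, and ALDH1A3, which makes retinoic acid, were inside in 90m G1 and bulk. The bulk list held 16 of the 25, against 2, 2 and 0 in 50k, 200k and 1e6. ARRDC4 and SPATA8 were inside in all stages, and MCTP2 in 180m G1, S, bulk and K562 but not in 90m G1, G1 or G2.

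The proximal part of the same arm, the Prader-Willi and Angelman domain of imprinted genes and its neighbors, showed the reverse order. Of its 18 fixed genes 0 were inside in 90m G1 and 0 in 180m G1, against 8 in G1, 7 in S, 5 in G2 and 9, 9, 8 and 10 in bulk, 50k, 200k and 1e6. GABRA5, a subunit of the GABA-A receptor, ATP10A and NPAP1 were inside in all 7 asynchronous lists. SNRPN and SNURF, expressed from the paternal copy, were inside in 6 of the 7, all but G2. UBE3A, the gene of Angelman syndrome, was not inside in any list and lay at most 20.1% in regions. HERC2 and the 4 genes of the group nearest the centromere, CYFIP1, NIPA1, NIPA2 and TUBGCP5, were outside in all 10 lists. On the centromere side of these 4 genes there were calls again, in G1 for example from 22000001 to 22600000. In K562 5 of the 18 were inside, without GABRA5 and GABRG3. A G1 region of 2.5 Mb, the greatest length on chromosome 15, lay here from 25800001 to 28300000. Another G1 region of the same length lay distally, from 86400001 to 88900000, with AGBL1 and NTRK3. It overlapped the longest 90m G1 region of the arm.

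On chromosome 21 there was no 90m G1 region. The longest G1 region ran from 19400001 to 26900000 (7.5 Mb) with 2 protein-coding genes, NCAM2, a neural cell adhesion molecule, and TMPRSS15, the enteropeptidase of the gut. In 180m G1 the calls within it were limited to 22900001 to 24700000 (1.8 Mb), which holds no gene by this rule, and NCAM2 lay 2.87% inside. Of 21 fixed genes of the gene-poor 21q21 stretch 180m G1 regions held 0, G1 and S regions 7 each (33.3%), G2 regions 6 (28.6%) and K562 regions 12 (57.1%). Of all arm genes 5.78, 5.42, 5.23 and 9.03% were inside in G1, S, G2 and K562.

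The cluster of claudin and keratin-associated protein genes of 21q22, small genes of tight junctions and of hair, was called nearly as a whole. Of its 35 genes 34 were inside in each of the 7 asynchronous HCT116 lists, and 0 in 90m G1 and 180m G1. KRTAP19-8 was the exception and was inside in K562, where all 35 were. Of 25 fixed genes of the Down syndrome region 2 were inside in G1, S and G2 (8%, against 5.78, 5.42 and 5.23% of all arm genes). They were DSCAM, an adhesion molecule of neurons, which was inside in all lists but 90m G1, and KCNJ15, a potassium channel, inside in the 7 asynchronous lists and in neither 90m G1, 180m G1 nor K562. RUNX1, DYRK1A, ETS2 and HMGN1 were outside in all 10 lists.

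The only 90m G1 region of chromosome 22 ran from 48400001 to 49300000 (0.9 Mb) with TAFA5, a secreted protein of the brain, and it overlapped a G1 region from 48200001 to 49100000 and a 1e6 region from 48400001 to 48800000. All 10 genes of the APOBEC3 and chromobox group, which includes the cytidine deaminases APOBEC3A to APOBEC3H and the Polycomb protein CBX7, were outside in all 10 lists.

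**Figure D5:**
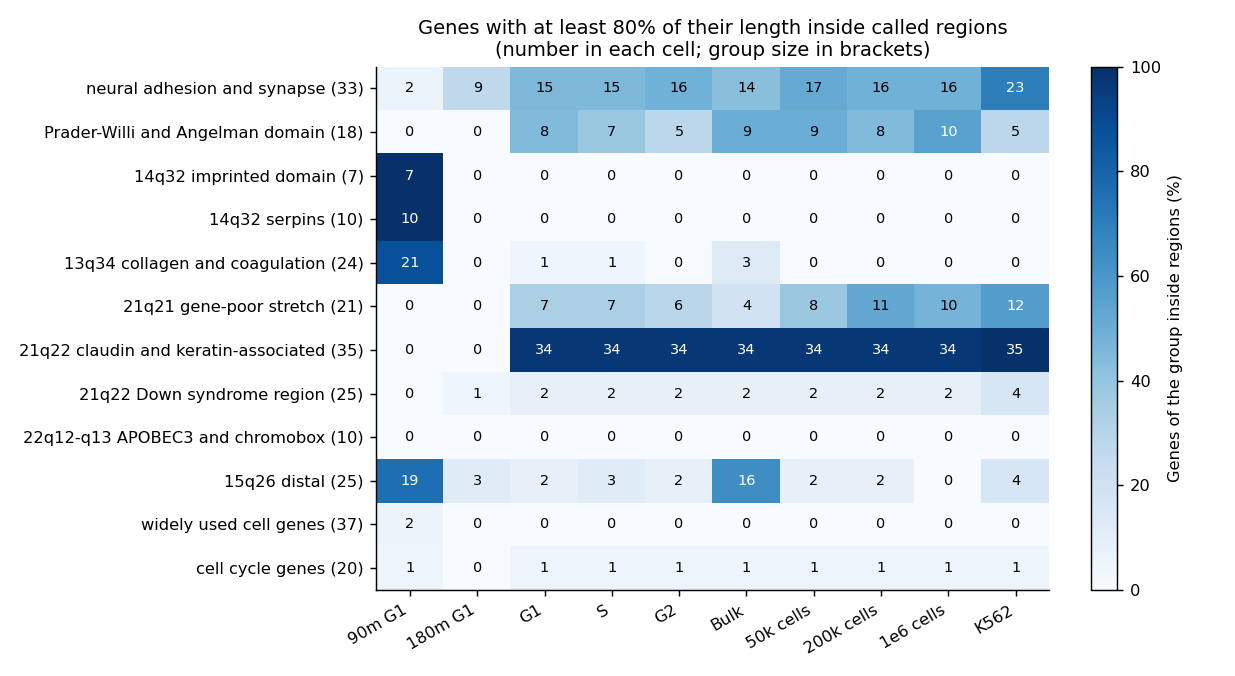
Count of genes lying 80% or more in called regions (number in each cell) for 12 gene groups (rows, size in brackets) and 10 lists (columns). Color is the share of the group in %. The 13q34, 14q32 and 15q26 groups are dark in 90m G1, the 21q22 claudin and keratin-associated group is dark in the 7 asynchronous lists and K562, and the widely used cell genes are at 0 outside 90m G1.

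The groups of widely used and cell cycle genes had shares inside that can be read against the 1.76 to 9.03% of all arm genes inside in the 10 lists. Of 37 genes used by most cells, among them the proteasome subunits PSMA3 and PSMB5, the chaperone HSP90AA1 and the glycolytic PKM, 0 were inside in 9 of the 10 lists. In 90m G1 2 were inside (5.41%, against 7.22% of all arm genes), YY1 on chromosome 14 and CUL4A on chromosome 13. Of 20 genes of the cell cycle at most 1 (5%) was inside in any list. CCNA1, a cyclin mainly of germ cells, was inside in the 7 asynchronous HCT116 lists and in K562, and TFDP1, a partner of E2F, in 90m G1 only. RB1, CCNB2, CHEK2, CDC45 and MCM5 were outside in all 10 lists.

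Of 33 genes of neural adhesion and synapse on the arms, 2 were inside in 90m G1 (NTRK3 and TAFA5), 9 in 180m G1, 15 each in G1 and S, 16 in G2 and 23 in K562. As shares these were 6.06% in 90m G1, near the 7.22% of all arm genes, and 27.3% in 180m G1, against 1.76%. In G1 and S they were 45.5%, against 5.78 and 5.42%, in G2 48.5%, against 5.23%, and in K562 69.7%, against 9.03%. In the 4 unsorted HCT116 lists 14 to 17 were inside, so that 90m G1 and 180m G1 were below that range, the asynchronous stages within it and K562 above it. PCDH17, GPC5, FLRT2 and DSCAM were inside in 180m G1, all 7 asynchronous HCT116 lists and K562. NRXN3, which makes a presynaptic adhesion molecule, lay 68.5% inside in 90m G1 and 96.3% in 180m G1.

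Windows called in all 9 HCT116 lists numbered 81 (2.43%, background 4.67%), on chromosomes 14 (39), 15 (36) and 13 (6) only. The longest run of such windows was from 94400001 to 95000000 on chromosome 13 (0.6 Mb, no protein-coding gene by the rule), from 78700001 to 79800000 on chromosome 14 (1.1 Mb, none), and from 86700001 to 88800000 on chromosome 15 (2.1 Mb, AGBL1 and NTRK3). On chromosome 14 another run of the same 1.1 Mb lay from 98100001 to 99200000, and a run of 0.7 Mb from 106600001 to 107300000. The last lies in the immunoglobulin heavy chain locus, which was singled out after its values were seen. Of its 47 annotated variable segments 47 were inside in 90m G1, 37 in 180m G1 and 1e6, 42 in S and 200k, 47 again in G1, G2, bulk and 50k, and 0 in K562. Variable segments resemble each other, and how reads that map to several of them were treated was not examined here.

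In the 7 asynchronous HCT116 lists 515 windows (15.4%, background 16.2%) were called by all, 507 by some and 2316 by none. Of the windows called by all 7, 83.1% were called in K562, 62.7% in 180m G1 and 16.3% in 90m G1. Of the windows called by none, 20.7% were called in K562.

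By count, windows called in K562 and in no HCT116 list lay mainly on chromosomes 13 and 14. On the arms 465 windows (13.9%, background 16.2%) were called in K562 and in no HCT116 list, and 2183 (65.4%, background 61%) were called in no HCT116 list at all. These 465 were 37.9% of the K562 windows, with 269 from chromosome 13 (49.5% of its K562 windows), 122 from chromosome 14 (38.6%), 55 from chromosome 15 (23.8%) and 19 from chromosome 21 (13.97%). Of the 269 windows on chromosome 13, 72.9% were also called in the authors' K562 list from published TSA-seq, of the 122 on chromosome 14 77.9%, and of the 55 on chromosome 15 0%. The longest stretches ran from 84100001 to 89200000 on chromosome 13 (5.1 Mb), which held SLITRK1, SLITRK5 and SLITRK6, transmembrane proteins of synapses, and from 40100001 to 45000000 on chromosome 14 (4.9 Mb), which held LRFN5, another synaptic adhesion gene, and FSCB, a gene of sperm. The 465 windows had a median GC content of 36.2%, with 1.55 gene starts per Mb. On chromosome 21 a stretch from 26900001 to 27600000 (0.7 Mb) with APP, the amyloid precursor, JAM2 and GABPA was called in K562 and in no HCT116 list. None of these 3 genes lay in the TSA-seq list, which held 1 of the 19 windows of this kind on chromosome 21 (5.26%).

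Called in at least 1 HCT116 list and not in K562 were 394 windows (11.8%, against 15.5% over all chromosomes). Of the 515 windows called in all 7 asynchronous HCT116 lists 87 (2.61% of the arm windows, against 1.99% over all chromosomes) were not called in K562, 37 of them on chromosome 21, where 20700001 to 22600000 (1.9 Mb) was the longest stretch, and 28 on chromosome 14, among them the 7 of the immunoglobulin locus and those with PRKD1, a protein kinase. Of the 312 windows of 90m G1 110 (35.3%, against 40.7% over all chromosomes) were called in K562, namely 14.5% of those of chromosome 13, 28.5% for chromosome 14, 58.7% for chromosome 15 and 0% for chromosome 22. A further 75 (24.0%) lay in the K562 consensus list of depleted regions, near the 24.7% over all chromosomes. All 75 were windows that 90m G1 alone of the stages had called, as were 96.0% of such windows over all chromosomes. Of the 75, 50 lay on chromosome 14, 20 on chromosome 13 and 5 on chromosome 15, with a median GC content of 51.0% and 11.3 gene starts per Mb.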

How the data were processed

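Lamin-B1 cTSA-seq was measured in HCT116 and K562 cells. Per the authors, reads were aligned to hg19 with Bowtie2 2.3.2, duplicates were removed with samtools, reads were counted in 100 kb windows with bedtools 2.26.0, and StrePD and input were scaled to the same total. The log2 ratio was z-scored, a hidden Markov model of 3 states called the windows, and replicate calls were intersected. The deposited values are starts and ends of regions in bp, with no counts, so depth and replicate spread are unknown.

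From these, windows over 50% covered were called, and GENCODE release 44 genes lifted to hg19 were counted as inside at 80% of their length, with Python 3.11.15, numpy 2.4.6, scipy 1.17.1 and matplotlib 3.10.9. The calling of windows and the count of bases inside regions were also tested on simulated regions made of whole windows, and the other steps were not. Sequences are from hg19. The members and the 12 gene lists (265 symbols, all matched) were chosen with earlier results of these data known. Named genes are list members whose lists of conditions differ from most of their group, further members as examples of their group (chosen after their values were seen), and the longest genes of the longest 90m G1, G1 and shared regions of each chromosome. The immunoglobulin locus and the stretches that differ between K562 and HCT116 were chosen after their values were seen. Chromosomes were left out in turn, and other thresholds were tried. The K562 TSA-seq and depleted-region lists were used only for comparison with K562. Some items are not reported here.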

Additional observations from a re-analysis of the deposited data

Results flagged for a closer look

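The bulk list stood apart from the 50k, 200k and 1e6 lists in 3 of 9 quantities, by a gap to its nearest neighbor beyond Dixon's 95% critical value for 4 values. This value served only as a flag and not as a test, because the 4 lists cannot be taken as independent draws of 1 kind. The 9 quantities also overlap, so no chance rate can be given. On chromosome 13 it called 29.8% of windows, against 21.6 to 22.7% in the other lists. On chromosome 21 it called 40.6%, against 47.7 to 48.8%. It held 189 protein-coding genes inside regions, against 140 to 147.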

How the results depend on the processing

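No paired analysis was possible because each condition has 1 list in which the replicates are already merged. Of 40 alternatives to thresholds and gene sets over 13 results, 35 moved the value by less than its counting interval or, for gene counts, by less than 1.5 times, and 5 moved it further. Some of the 35 could not move the value. Region borders follow the 100 kb windows, and no arm region of the lists used was under 200 kb. The 0% proximal share in 90m G1 stayed at 0% because the inner segments hold no call. The counting interval treats neighboring windows as independent, which they are not. The distal share in 90m G1 was 50% with the outer 10% of the arm in place of the outer 20%. The proximal share in G1 was 32.05% with the inner 10% and 35.6% with the inner 10 Mb. With genes of all types 951 were inside in 90m G1 and 1197 in G1.

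Leaving out each chromosome in turn, the share called ran from 6.82 to 10.8% in 90m G1, from 10.5 to 13.8% in 180m G1, from 19.2 to 23.6% in G1 and from 28.6 to 40.9% in K562. The distal 20% of the arm ran from 32.2 to 48.4% in 90m G1 and from 17.4 to 26.9% in G1, and the proximal 20% of the arm was 0% throughout in 90m G1 and ran from 22.8 to 34.2% in G1. The part of 90m G1 windows called in 180m G1 ran from 23.6 to 35.0% and in G1 from 34.6 to 51.2%, and that of 180m G1 windows called in G1 from 84.2 to 91.6%. Genes inside ran from 70 (without chromosome 14) to 160 in 90m G1 and from 79 (without chromosome 21) to 127 in G1. The cause of these moves was not tested.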

Other observations

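Olfactory receptor genes, chosen after their values were seen, lie in clusters on chromosomes 14 and 15. Of the 26 on the chromosome 14 arm 0 were inside regions in 90m G1 and 0 in 180m G1, 14 in G1, 7 in S, 14 in G2, 1 in bulk, 18 in each of 50k, 200k and 1e6, and 4 in K562. The bulk list thus stood below the other 3 unsorted lists here. Of the 8 on chromosome 15 3 were inside in 90m G1, 0 in 180m G1, 5 in G1, 0 in S, 5 in G2, 2 in bulk, 5 in each of 50k, 200k and 1e6, and 5 in K562.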
